A study of Mus musculus with 4 samples.

Results

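C/EBP and Maf transcription factors were measured in mouse Ly6C-high bone marrow monocytes that were cultured with retinoic acid or with its solvent. The members were 9 genes chosen by name, Cebpa, Cebpb, Cebpd, Cebpe, Cebpg, Maf, Maff, Mafg and Mafk. They were read by 10 probe sets that carry exactly 1 gene symbol in the platform annotation (Maf has 2), out of 23521 such probe sets for 22180 genes. Both groups held Ly6C-high monocytes, enriched and then sorted from marrow pooled over 3 mice. The culture medium held GM-CSF at 20 ng/ml and interleukin 4 at 20 ng/ml, which push monocytes toward dendritic cells. The treated group received all-trans retinoic acid (RA) at 100 nM when the culture began, the control group received DMSO, and RNA was taken after 24 h (day 1). Each group had 2 arrays, and the labels name no strain, genotype or age of the mice. Nothing in the labels says that the 2 arrays of a group came from separate cultures or pools, so the spread behind the p-values is that between these samples and may be technical only.

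C/EBP proteins and Maf proteins are basic leucine zipper factors, which bind DNA as dimers. C/EBP alpha drives the commitment of progenitors to the granulocyte and monocyte lines, C/EBP beta and C/EBP delta act in monocytes, macrophages and inflammation, C/EBP epsilon drives late granulocyte maturation, and C/EBP gamma lacks an activation domain and modulates its partners. Maf encodes c-Maf, a large Maf factor with an activation domain that is known for its role in macrophage identity and in the interleukin 10 gene. Maff, Mafg and Mafk encode the small Maf proteins, which have no activation domain and work as partners of NRF2 and related factors, or of BACH1 and BACH2, at antioxidant elements. RA acts through nuclear receptors that bind repeats of a half-site.

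Promoter stretches are shown for members whose window holds a letter pattern of a leucine zipper factor, so that a reader can see where these letters lie. RefSeq windows (GRCm38.p6) of 300 bases, from 250 before to 50 after a transcription start, were found for 6 of the 9 genes (8 windows); Cebpd, Cebpe and Maf had no entry. Each stretch below reads 5′ to 3′ on the gene's strand, with the matching letters in capitals. The Cebpb stretch, chr2:167688853-167688914, plus strand, ends at the base before the start and holds the CRE half-site TGACG at -53 and at -7. The Maff stretch, chr15:79346551-79346585, plus strand, belongs to the most upstream of its 3 listed starts and holds the C/EBP pattern TTGCNNAA at -55. The Mafk stretch, chr5:139791296-139791325, plus strand, holds the Maf half-site TGCTGA on the opposite strand, and the Mafg stretch, chr11:120633748-120633777, minus strand, holds the antioxidant element TGACNNNGC on the opposite strand.
Cebpb: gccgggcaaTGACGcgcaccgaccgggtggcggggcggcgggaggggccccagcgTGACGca
Maff: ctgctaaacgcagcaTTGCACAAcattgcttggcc
Mafk: acagggccaggagcTCAGCAatgagacaac
Mafg: ctgcaggaGCACGGTCAacccggcgagcgc

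Over both strands, TGACG was found in 5 of the 8 member windows and in 20.8% of all 32851 windows. TGACNNNGC, which overlaps TGACG at 1 place in the Cebpb window, was found in 4 of 8 and in 12.4% of all. TTGCNNAA and TGCTGA were each found in 1 of 8, against 10.8% and 19.5% of all windows. The half-site AGGTCA of retinoic acid receptors was found in 0 of 8 and in 16.3% of all, which says only that these letters are not in these windows. A match is a description of the letters, and binding was not measured.

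The deposited values were log2-transformed, and a log2 difference of 1 is a doubling of intensity. Array medians lay between 80.0 and 81.8 on the linear scale. A level of 6.35, the 95th percentile of 1400 olfactory and vomeronasal receptor probe sets, served as a guide to dim signal. The 8 monocyte markers differed in brightness, and none lay under the dim level in both groups. Ly6c2, which encodes the sorted antigen, lay at 11.87 and 11.96 with DMSO and at 11.77 and 11.67 with RA. With DMSO, Cd14 (7.57 and 7.64) and Cx3cr1 (7.46 and 7.53) were much dimmer. In limma's test described below, 0 of 8 monocyte markers passed, and 4 had an unadjusted p under 0.05. Of these 4, Itgam, Fcgr1 and Cd14 were higher with RA, by log2 differences of 0.659, 0.597 and 0.287. Ccr2 was lower, with a difference of -0.341. These are bulk samples, so fewer cells of a type and less RNA per cell cannot be told apart.

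None of the 10 member probe sets passed the test at 24 h. The test was limma over 39720 probe sets with Benjamini-Hochberg adjustment and a threshold of 0.05, and it called 2.09% of all tested probe sets (0.904% as higher and 1.19% as lower with RA). The members' adjusted p-values ran from 0.105 to 0.847, and 3 of 10 had an unadjusted p under 0.05, against 13.4% of all tested probe sets. Their differences (mean log2 value with RA minus DMSO) were small, from 0.07 to 0.44 in size. The smallest difference that this fit over 39720 probe sets called was 0.54. The 95% confidence intervals, not adjusted for the number of tests, lay within 2-fold in either direction for 10 of 10 probe sets and within 1.5-fold for 6. The interval left out 0 for 3 probe sets, those of Cebpb, Cebpe and the dimmer probe set of Maf, all with higher values under RA, as had 6.06% of all tested probe sets at an unadjusted p under 0.05.

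The values on single arrays nevertheless separated by treatment in most members. Both RA arrays lay above both DMSO arrays in 5 probe sets (20.7% of all tested) and below them in 4 (23.3% of all tested), and only Cebpg overlapped; over all tested probe sets 44.0% did not overlap. Several of these gaps were narrow. DMSO replicate 2 was above DMSO replicate 1 in 8 of the 10 member probe sets, and the part of this difference between the control arrays in the results was not tested. How often this order held over all tested probe sets is not given here, so the count cannot be called particular to the members. The median size of the difference was 0.26 over the 10 member probe sets and 0.10 over all tested probe sets, many of which are dim.

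**Figure D1:**
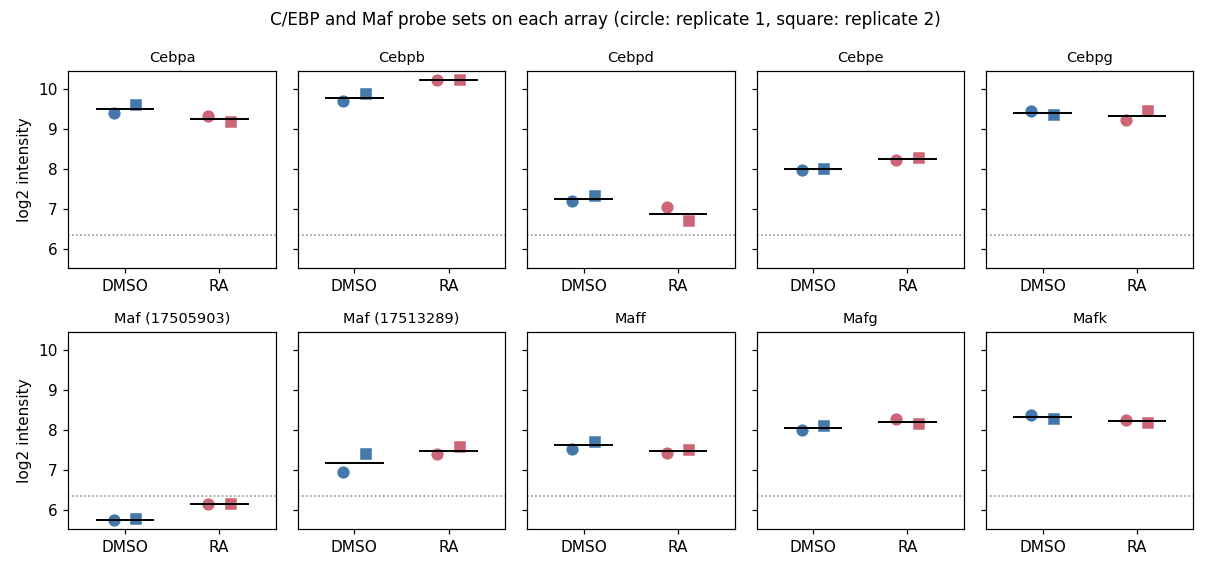
Log2 intensity (y axis) of the 10 C/EBP and Maf probe sets on each DMSO (blue) and RA (red) array; circles are replicate 1, squares replicate 2, black lines the mean of 2 arrays, and the dotted line the dim level of 6.35. Cebpb lies higher with RA, from 9.79 to 10.23, Cebpa and Cebpd lie lower, and the probe set 17505903 of Maf stays under the dotted line in both groups.

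Among the C/EBP genes, Cebpb had the largest difference of all members. Its log2 intensity was 9.69 and 9.88 with DMSO and 10.22 and 10.24 with RA. The RA arrays agreed closely and both lay above the DMSO arrays. The mean went from 9.79 ± 0.13 to 10.23 ± 0.01 (SD, n = 2), 1.36-fold higher with an interval of 1.14 to 1.62-fold, and limma's adjusted p was 0.136 (unadjusted 0.00647). Of all tested probe sets, 7.02% differed by as much or more.

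Cebpa, the factor of granulocyte and monocyte commitment, had values of 9.40 and 9.61 with DMSO and of 9.33 and 9.17 with RA. The RA arrays lay below the DMSO arrays by a narrow gap. The difference was -0.25 ± 0.11 (log2, SE; limma adjusted p = 0.441), which is 1.19-fold lower with an interval from 1.46-fold lower to 1.03-fold higher. Cebpb and Cebpa thus differed in opposite directions. Taken on the same array, the log2 value of Cebpb minus that of Cebpa was 0.29 and 0.27 with DMSO and 0.89 and 1.06 with RA. The size of this offset has no meaning between probe sets, but its shift between the groups was 0.69, a 1.62-fold change in their ratio, beside SDs of 0.02 and 0.12. This pair was chosen after the values were seen, so the shift is a description with no test.

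Cebpd, an inflammation-induced relative, was read at 7.19 and 7.32 with DMSO and at 7.06 and 6.70 with RA. The groups did not overlap, but the 2 RA arrays were farther apart than the nearest values of the groups. The difference was -0.37 ± 0.14 (log2, SE; limma adjusted p = 0.377), or 1.29-fold lower, with an interval of the log2 difference from -0.75 to 0.004. Without RA replicate 2 it was -0.19, and without RA replicate 1 it was -0.55.

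Cebpe, the factor of late granulocyte maturation, was read at 7.97 and 8.01 with DMSO and at 8.23 and 8.28 with RA. Replicates lay close together, with SDs of 0.03 and 0.04, and the groups were clear of each other. The mean was 1.20-fold higher with RA (interval 1.04 to 1.38-fold; limma adjusted p = 0.254). Cebpg was the member with the smallest difference and the only one whose groups overlapped, with 9.46 and 9.35 under DMSO and 9.22 and 9.45 under RA. Its difference was -0.07 ± 0.11 (log2, SE; limma adjusted p = 0.847) and changed sign, to 0.041, without RA replicate 1.

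**Figure D2:**
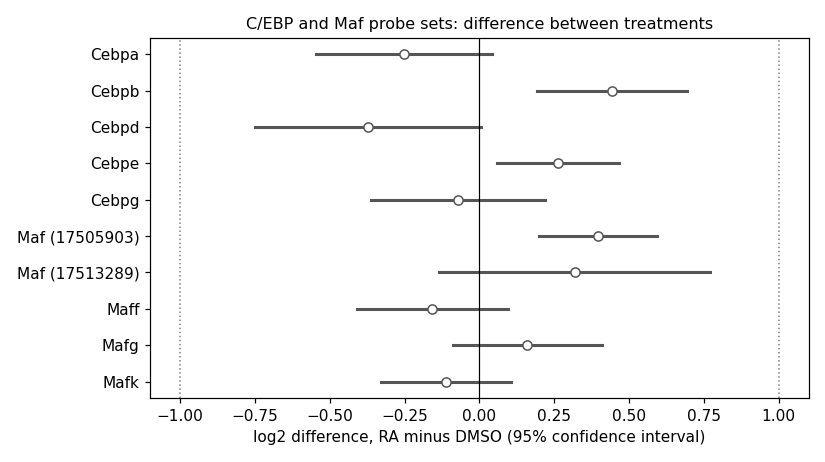
Log2 difference, RA minus DMSO (x axis), of each C/EBP and Maf probe set with its unadjusted 95% confidence interval (bars); dotted lines mark 2-fold. All 10 points are open, which marks an adjusted p of 0.05 or more, and the intervals of Cebpb, Cebpe and Maf probe set 17505903 leave out 0.

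For the large factor gene Maf, both probe sets were higher with RA, and neither passed. Probe set 17505903 gave 5.75 and 5.78 with DMSO and 6.17 and 6.15 with RA. All 4 values lay under the dim level, so they cannot be told from background and no fold is given. The log2 values differed by 0.40 ± 0.08 (SE; limma adjusted p = 0.105). Probe set 17513289 gave 6.95 and 7.40 with DMSO and 7.41 and 7.58 with RA. Its higher DMSO array nearly touched the lower RA array. The difference was 0.32 ± 0.17 (log2, SE; limma adjusted p = 0.526), and it ranged from 0.09 without DMSO replicate 1 to 0.54 without DMSO replicate 2. The size of the difference in the brighter probe set therefore rests on a control array.

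The 3 small Maf genes had the smallest differences after Cebpg. Maff, which is known to be induced by stress and cytokines, was read at 7.55 and 7.72 with DMSO and at 7.44 and 7.51 with RA, a difference of -0.16 ± 0.10 (log2, SE). Mafg was read at 8.0 and 8.12 with DMSO and at 8.29 and 8.15 with RA, a difference of 0.16 ± 0.10. Mafk was read at 8.38 and 8.29 with DMSO and at 8.26 and 8.19 with RA, a difference of -0.11 ± 0.08. In each of these genes the gap between the groups was smaller than the distance between the arrays of at least 1 group. Their limma adjusted p-values were 0.579, 0.565 and 0.653. The unadjusted 95% intervals of these genes reached at most 1.33-fold, for Mafg upward and Maff downward.

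**Figure D3:**
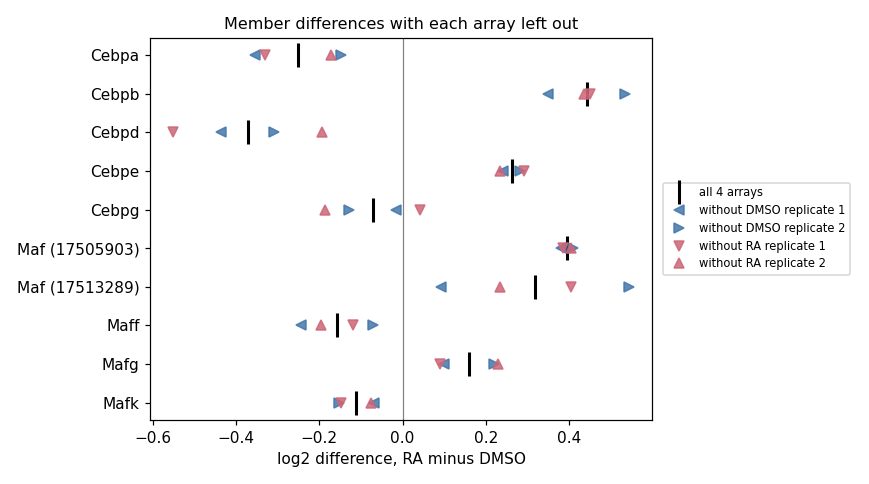
Log2 difference, RA minus DMSO (x axis), of each member with all 4 arrays (black bar) and with each array left out (blue: a DMSO array left out, red: an RA array left out). Cebpg alone crosses 0, Cebpe and Maf probe set 17505903 move least, and Maf probe set 17513289 spans 0.09 to 0.54.

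The calls of Cebpb and of Maf probe set 17505903 depended on which probe sets were tested together. When only the 23521 probe sets with 1 gene symbol entered the limma fit, Cebpb (adjusted p = 0.0360) and Maf 17505903 (adjusted p = 0.0283) passed with the same differences as before, and the share called among all was 6.96% (3.22% as higher). The other 8 member probe sets did not pass there. Without any 1 of the 4 arrays, 0 members passed in limma's fit over all probe sets, and across these fits Cebpb had adjusted p-values of 0.299 to 0.395. The fit leaves out probe sets that hold 1 constant value on all arrays. With these kept, limma called 0 probe sets in all (6260 at an unadjusted p under 0.05), so each gene written of below as having risen or fallen lost its call there.

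Proteins that control C/EBP factors were examined through a list of 6 measured genes, of which 1 fell, 0 rose and 5 did not pass (over 22180 genes, each at its brightest probe set, 3.07% were called, 1.28% as higher and 1.79% as lower). The gene that fell was Trib1, which encodes an adaptor that brings C/EBP alpha to the ubiquitin ligase COP1 for degradation. Trib1 was read at 9.25 and 9.39 with DMSO and at 7.64 and 7.49 with RA. The groups were far apart relative to their replicates. The difference was -1.76 ± 0.10 (log2, SE; limma adjusted p = 0.00642), which is 3.38-fold lower. The arrays read RNA, so the level of the C/EBP alpha protein was not measured. Trib1 did not pass when any 1 array was left out (limma adjusted p 0.0616 to 0.0723) or with the constant probe sets kept (0.0704), and its difference was at least 1.67 in size in every alternative run.

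Trib2, a close relative of Trib1 with the same activity toward C/EBP alpha, had values of 6.21 and 5.90 with DMSO and of 6.73 and 6.81 with RA. It differed in the direction opposite to Trib1, by 0.71 ± 0.13 from a level under the dim level, and did not pass (limma adjusted p = 0.0888; 0.0145 in the fit on probe sets with 1 symbol). Cop1 itself differed by 0.01 ± 0.08. Ddit3, which encodes CHOP, an inhibitory dimer partner of C/EBP proteins, differed by -0.45 ± 0.14 (limma adjusted p = 0.271). Atf4, which can pair with C/EBP factors, differed by -0.002 ± 0.082, and Trib3 by 0.04 ± 0.17. The list's median difference was 0.004, against 0.009 over all genes.

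Of 7 measured partners of the small Maf proteins, 1 rose, 0 fell and 6 did not pass. The gene that rose was Bach2, a repressor best known in lymphocytes that pairs with small Maf proteins. Bach2 was read at 6.15 and 6.17 with DMSO, under the dim level, and at 6.98 and 6.93 with RA. The arrays of each group lay within 0.1 of each other, and the groups were well separated. The difference was 0.80 ± 0.08 (log2, SE; limma adjusted p = 0.0200), a 1.74-fold increase over a level close to background, and it was not called without any 1 of the arrays (adjusted p 0.123 to 0.170) nor with the replicate number as a block (0.104). Its relative Bach1, which represses the heme oxygenase gene, differed by -0.22 ± 0.10 and did not pass (limma adjusted p = 0.419). Nfe2l2, which encodes NRF2, differed by 0.13 ± 0.09, and Keap1, its inhibitor, by 0.15 ± 0.10 and 0.08 ± 0.09 in its 2 probe sets. Nfe2l1, Nfe2l3 and Nfe2, which encode other partners of the small Maf proteins, differed by -0.18 ± 0.09, -0.08 ± 0.08 and 0.07 ± 0.09. Of the large Maf relatives, Mafa differed by 0.15 ± 0.09 and Nrl by -0.11 ± 0.11.

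**Figure D4:**
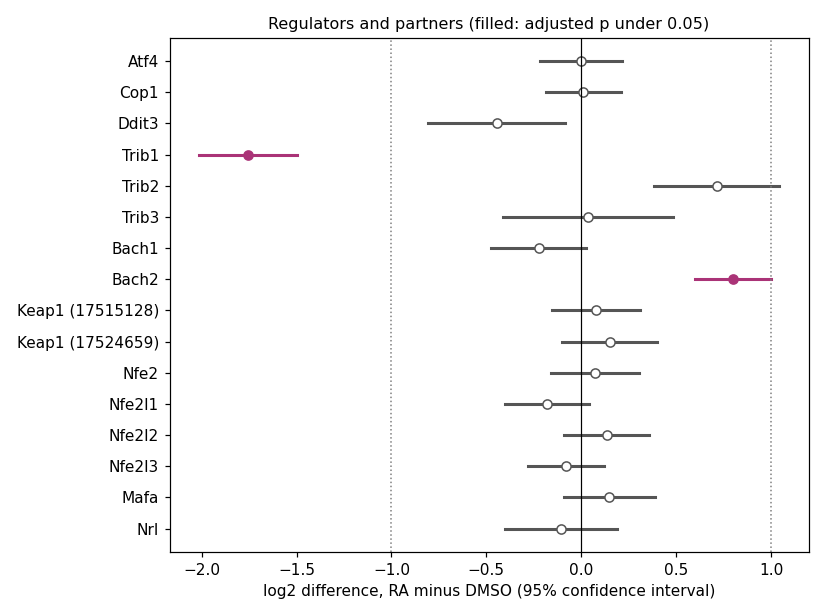
Log2 difference, RA minus DMSO (x axis), with unadjusted 95% confidence intervals for regulators of C/EBP factors, partners of small Maf proteins and large Maf relatives; filled points have a limma adjusted p under 0.05 and dotted lines mark 2-fold. Trib1 at -1.76 and Bach2 at 0.80 are the filled points, and Trib2 lies at 0.71 without passing.

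Genes that these factors are known to act on were followed through 3 lists, which were put together with earlier results of these data known and are no independent evidence. Of 24 C/EBP target genes of myeloid cells, 2 rose, 0 fell and 22 did not pass, with a median difference of 0.04 (0.009 over all genes). Among the 22, the 3 genes Ptgs2, Nos2 and Csf3 lay under the dim level in both groups. The genes that rose were Arg1, which encodes arginase 1 (2.43 ± 0.22, log2, SE), and Hp, which encodes haptoglobin (0.97 ± 0.09), with limma adjusted p-values of 0.0172 and 0.0173. The granule genes of the list, which are known targets of C/EBP alpha or C/EBP epsilon, did not pass: Elane differed by 0.21 ± 0.09, Mpo by -0.14 ± 0.08, Ltf by -0.07 ± 0.13 and Ngp by -0.13 ± 0.09. Prtn3, the proteinase 3 gene, differed by 0.73 ± 0.11 and did not pass either (limma adjusted p = 0.0601). Among the growth factor receptors of the list, Csf1r differed by -0.01 ± 0.07, Csf3r by 0.05 ± 0.10, Csf2ra by -0.35 ± 0.12 and Il6ra by -0.63 ± 0.09, and none of these 4 passed. Of them Il6ra was nearest to the threshold (limma adjusted p = 0.0516).

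Of 11 macrophage genes linked to Maf factors, 3 rose, 1 fell and 7 did not pass, with a median difference of 0.15. At an unadjusted p under 0.05 in limma's test the list held 6 of 11, against 13.4% of all tested probe sets. The list was put together with earlier results of these data known. Among the 7, the 4 genes Il10, Cd163, Folr2 and Cd5l lay under the dim level in both groups. Stab1, a scavenger receptor gene, and the complement genes C1qb and C1qc rose, by 0.87 ± 0.09, 1.14 ± 0.11 and 0.82 ± 0.09 (log2, SE; limma adjusted p = 0.0212, 0.0210 and 0.0293). Their relative C1qa was 0.61 ± 0.14 higher without passing (limma adjusted p = 0.164). F13a1, which encodes a coagulation factor subunit, fell by 2.00 on the log2 scale (adjusted p = 0.00431), to a level under the dim level. Il10, a classical c-Maf target, lay near 5 on all 4 arrays, under the dim level, so whether it responded cannot be read from these values. Mertk, a receptor for the uptake of dead cells, was 1.04 ± 0.22 higher without passing (limma adjusted p = 0.130).

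Of 15 measured antioxidant response genes, which NRF2 and small Maf proteins bind together, 2 rose, 1 fell and 12 did not pass, with a median difference of 0.002. Gsr, which encodes glutathione reductase, was read at 11.79 on both DMSO arrays and at 12.68 and 12.71 on the RA arrays (limma adjusted p = 0.0147). Osgin1, an oxidative stress-induced growth inhibitor gene, was read at 8.34 and 8.24 with DMSO and at 9.06 and 9.12 with RA (limma adjusted p = 0.0244). Slc7a11, which encodes the cystine importer, went the other way, with 10.51 and 10.55 under DMSO and 9.58 and 9.32 under RA (limma adjusted p = 0.0237), and its second probe set, under the dim level, differed by -0.27 ± 0.11. The heme oxygenase gene Hmox1 differed by 0.29 ± 0.14, Gclm by -0.10 ± 0.08 and Nqo1 by -0.80 ± 0.33, the last with DMSO arrays far apart, at 8.64 and 7.80. The genes of this list that passed therefore differed in both directions. Of the 9 genes called in these 3 lists, only Arg1 passed in any fit with 1 array left out, and there only without DMSO replicate 2 (limma adjusted p = 0.0382).

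**Figure D5:**
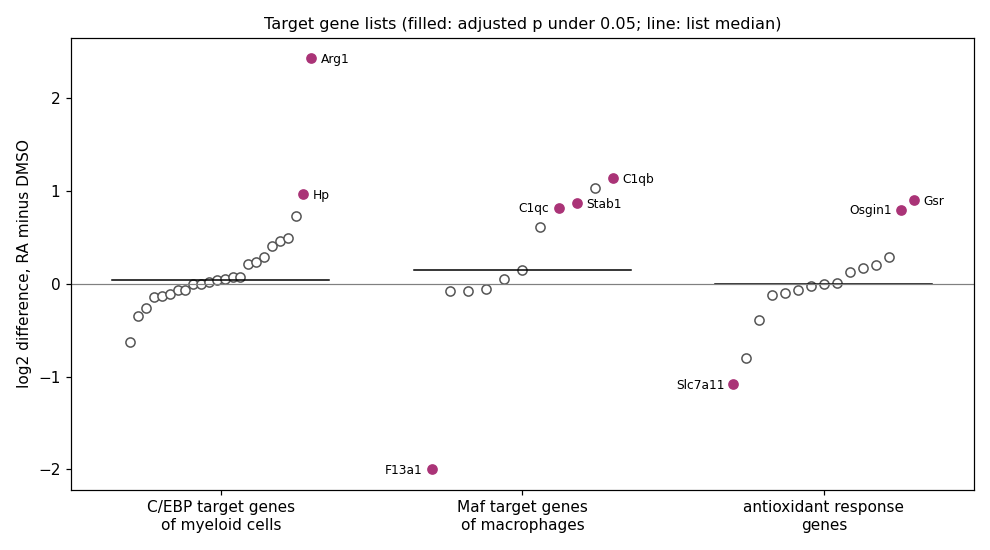
Log2 difference, RA minus DMSO (y axis), of the measured genes of 3 target lists, each gene at its brightest probe set and ordered within its list; filled points have a limma adjusted p under 0.05 and black lines are list medians. Most points of the C/EBP target and antioxidant response lists lie near 0. The Maf target list is spread out, with C1qb at 1.14, Mertk at 1.04 and F13a1 at -2.00. The medians are 0.04, 0.15 and 0.002, and F13a1 and Slc7a11 are the filled points below 0.

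Markers of other cells were read on the same arrays, beside the granulocyte factor Cebpe and the C/EBP targets. Of 8 neutrophil markers 1 passed as higher, Retnlg, whose values lay under the dim level in both groups, and 1 fell, Cxcr2. The summed linear intensity of the 8 markers was 10299 to 10956 with DMSO and 8624 to 9493 with RA. Sums on the linear scale are weighted to bright genes, so they are no separate measure of cell number. Cxcr2 was among the bright ones, with a mean of 11.40 with DMSO and 10.25 with RA. The 6 of the 8 that did not pass had log2 differences from -0.15 (S100a9) to 0.49 (Mmp8). Of 7 dendritic cell markers 4 fell, and H2-Ab1, the brightest of the list, had a mean of 13.31 with DMSO and 11.77 with RA. The summed intensity of the 7 was 20511 to 21342 with DMSO and 10534 to 10619 with RA. The count of 4 and these sums use the probe set of Cd209a with the highest mean, which differed by 0.05 ± 0.09. The other probe set of Cd209a differed by -4.12 ± 0.09 (log2, SE; limma adjusted p = 0.00172). Of 4 measured B cell markers 1 rose, Cd79b, with sums of 291.8 to 294.0 and 373.9 to 381.6, and 2 of the 4 lay under the dim level in both groups. Of 7 basophil, mast cell and eosinophil markers 1 rose, Siglecf, with sums of 660.0 to 674.8 and 784.7 to 816.4. Cd79b and Siglecf were each the brightest marker of their list. None of 5 T and NK cell markers (4 under the dim level in both groups) and none of 2 measured erythroid markers passed in limma's test, and at an unadjusted p under 0.05 the 7 together held 1, Cd3g. No marker was listed at 0. The part of other cells in the values of the C/EBP and Maf genes was not tested.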

How the data were processed

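The authors deposited 1 RMA intensity per probe set and array, made with Affymetrix Expression Console per the submitters' processing notes; RMA corrects background, normalizes between arrays and summarises probes. Versions and a genome build are not given in the sources used here. Per the labels' protocols, 250 ng of RNA was labelled with the WT PLUS kit. The linear values were log2-transformed here and not normalized again. Of 41345 probe sets, 1625 held an identical value on all 4 arrays and carried no gene symbol; they were left out, which left 39720. RA was compared with DMSO by limma 3.58.1 in R 4.3.3 (lmFit and eBayes, no covariates, two-sided, Benjamini-Hochberg over all 39720). An exact permutation test of 2 against 2 arrays cannot give a p under 0.333. The fit was also run on simulated data, with variances drawn from its own prior and changes larger than any member difference. That run therefore says nothing about differences of the members' size. Depth does not apply to arrays; their number limits the precision. Gene names came from the platform annotation (23521 probe sets with 1 symbol, 1814 with several, 16010 unnamed here). For gene lists, a gene was represented by its brightest probe set. The members, lists and the exclusion of constant probe sets were chosen with earlier results of these data known. Named genes were all member probe sets, all genes of the regulator and partner lists, and genes past the threshold in the target lists; others were named after their values were seen. The rule for genes with a pattern like a called member named none, since no member was called. The replicate numbers were not taken as pairs. The deviations of same-numbered arrays had a weak negative correlation (-0.25 across probe sets), which cannot decide whether they were pairs. The choice matters, since the fit with the replicate number as a block called 161 probe sets. Alternatives were the constant probe sets kept, filters, a pseudocount of 16, scaling, eBayes options, a replicate block and each array left out.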

Additional observations from a re-analysis of the deposited data

How the results depend on the processing

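The number of member probe sets called stayed at 0 under every alternative except the fit on probe sets with 1 gene symbol, where it was 2 (Cebpb and Maf 17505903); with each array left out it was 0 to 0. Of 139 refits of single member probe sets, 136 kept direction and side of the threshold, 2 passed where the main fit did not, and 1 changed sign, Cebpg without RA replicate 1 (0.041; the lowest value with 1 array left out was -0.19). Over all probe sets limma called 831 in the main fit. It called 0 with the constant probe sets kept (6260 at an unadjusted p under 0.05 in that fit), 1636 among probe sets with 1 symbol, and 25 to 55 with 1 array left out. With the replicate number as a replicate block it called 161, and with the crossed pairing as a block, added after the data were seen, 457; no member passed under either. The cause of these shifts was not tested, other than that keeping the constant probe sets took the prior degrees of freedom in limma from 2.76 to 0.898, and that leaving out arrays reduces their number. Dim signal limits Maf 17505903, whose levels lay under 6.35.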
